A study of Mus musculus with 20 samples.

Results

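DNA replication machinery was followed as 51 genes of the 16810 in the table, in microglia sorted from injured mouse spinal cord. The genes were taken by symbol, 38 by name pattern and 13 by a fixed list, and the set was chosen with earlier results of these data known. They comprised the origin recognition complex (*Orc1* to *Orc6*), the MCM genes, the GINS genes, the subunits of DNA polymerases alpha, delta and epsilon with primase, the clamp and its loader, RPA, and genes of licensing, nucleotide supply, flap processing and maintenance methylation. The catalytic subunit *Pole* was not caught by the name pattern and was described with the associated factors.

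The data were RNA-seq profiles of 20 samples from adult male mice aged 12 weeks on a C57BL/6 background. All groups, controls included, carried 1 eGFP allele at the *Cx3cr1* locus, so eGFP marked microglia and also blood monocytes and the macrophages derived from them. Cells with high eGFP were sorted from a 1 cm segment of cord around the lesion site at thoracic level 9. The groups were non-injured (NI, 3 samples), lateral hemisection (HS) at 72 h (3 samples), 1 week (2 samples) and 2 weeks (3 samples), and full transection (FT) at 72 h, 1 week and 2 weeks (3 samples each). Which mice went into which sample was not given in the sources used here. The paper reports RNA from more mice than there are samples in each condition, so a sample may hold several mice. The p-values thus measured the spread between these samples and not between single mice. Depth ran from 3.87 M to 34.1 M reads per sample, with no stated batch. FT 1 week replicate 1 stood apart, with a CPM column total of 878070 beside 1054080 and 1118930 in the other samples of its group. The microglial list of 12 genes summed to between 22061 and 42073 CPM (read counts scaled to library size) in all 20 samples, and *Tmem119* was lower at 72 h after both injuries.

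Replication starts at origins bound by the origin recognition complex, where CDC6 and CDT1 load the MCM2-7 helicase in G1 and geminin blocks reloading later in the cycle. In S phase CDC45 and GINS switch the helicase on, primase and polymerase alpha lay down primers, and polymerases delta and epsilon extend them on the PCNA clamp. Adult microglia divide rarely in the healthy cord and are known to proliferate after injury. Many genes of this machinery are transcribed under E2F factors at the G1 to S transition.

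The promoter letters of the genes are given first, because E2F-type letters are a sequence feature that many of these genes are known for. RefSeq promoter windows of 300 bases, from 250 before to 50 after the transcription start on GRCm38.p6, were found for 44 of the 51 genes. Genes with at least 1 window holding TTTCCCGC, TTTCGCGC, TTTGCCGC or TTTGGCGC on either strand numbered 19 of 44 (43.18%), against 704 of all 27025 genes with a window of this length (2.605%) and 498 of 12260 such genes of the table (4.062%). Some genes have more than 1 window, and so more chances to hold the letters. These letter strings can overlap one another. The CCAAT letters, which are not part of them, stood in a window of 28 of the 44 genes (63.64%) against 41.06% of all genes with a window. A match is a description of letters and not a bound site. The stretches shown are those of genes whose levels are given in detail and whose match lay before the RefSeq start and under no annotated exon, and they were chosen with those levels known. In *Cdc6* and *Uhrf1* another annotated transcript starts further upstream, so the stretch lies in an intron of the gene. Each runs 5′ to 3′ on the strand of the gene, with the matched letters in capitals. In *Mcm5* and at the upstream match of *Mcm6* the capitals are overlapping matches on opposite strands.
Mcm5 chr8:75109330-75109389 (plus strand): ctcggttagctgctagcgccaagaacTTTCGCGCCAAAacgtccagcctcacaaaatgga
Mcm6 chr1:128359782-128359841 (minus strand): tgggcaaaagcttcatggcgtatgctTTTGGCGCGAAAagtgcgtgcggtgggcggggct
Mcm6 chr1:128359719-128359778 (minus strand): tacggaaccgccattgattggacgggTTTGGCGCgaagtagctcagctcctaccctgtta
Cdc6 chr11:98907987-98908046 (plus strand): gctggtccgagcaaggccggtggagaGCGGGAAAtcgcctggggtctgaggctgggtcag
Uhrf1 chr17:56304102-56304161 (plus strand): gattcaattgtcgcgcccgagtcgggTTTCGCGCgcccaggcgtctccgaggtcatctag
Pola1 chrX:93632260-93632319 (minus strand): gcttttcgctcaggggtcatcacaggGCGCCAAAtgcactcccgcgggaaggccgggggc
The match began 153 bases before the transcription start in *Mcm5*, 110 and 47 bases before it in *Mcm6*, 138 in *Cdc6* and *Pola1*, and 185 in *Uhrf1*.

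At 72 h the machinery rose after both injuries. Against NI, 37 of 51 genes (72.5%) were higher after HS, where 9.08% of all genes tested were, and 31 of 51 (60.8%) were higher after FT, where 8.14% were. None of the 51 was lower in either comparison, where 4.31% and 4.09% of all genes were. Every injured sample lay above every NI sample for 44 of the 51 genes after HS (24% of all genes) and for 40 after FT (22.2%). A gene was called higher or lower when limma gave a Benjamini-Hochberg adjusted p under 0.05 over all 16810 genes together with at least a 2-fold change, both on the log2(CPM + 0.5) scale, which understates the change of low genes. The median log2 fold change of the 51 genes was 1.44 after HS and 1.25 after FT, where the medians over all genes were -0.11 and -0.09. All 31 genes called after FT were also called after HS, and both comparisons used the same 3 NI samples. The 6 genes called after HS alone were *Cdt1*, *Pold2*, *Rfc2*, *Rfc3*, *Rpa2* and *Rpa3*.

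The summed level of the 51 genes was 938, 865 and 855 CPM in NI. It was 3586, 2608 and 2160 CPM in the HS samples at 72 h, and 2608, 2196 and 2122 CPM in the FT samples at that time. Every 72 h sample thus held at least 2122 CPM and no NI sample more than 938 CPM. As a share of all reads of a sample, the genes took 0.110% to 0.113% in NI, 0.202% to 0.318% at 72 h after HS and 0.191% to 0.244% at 72 h after FT. In sorted bulk samples, more cells in S phase and more RNA per cell cannot be told apart. HS 72 h replicate 1, the most deeply sequenced sample (34.1 M reads), was the highest of all 20 samples for 37 of the 51 genes. Without it the count after HS was 34, with *Cdt1*, *Orc1* and *Rfc3* lost.

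**Figure D1:**
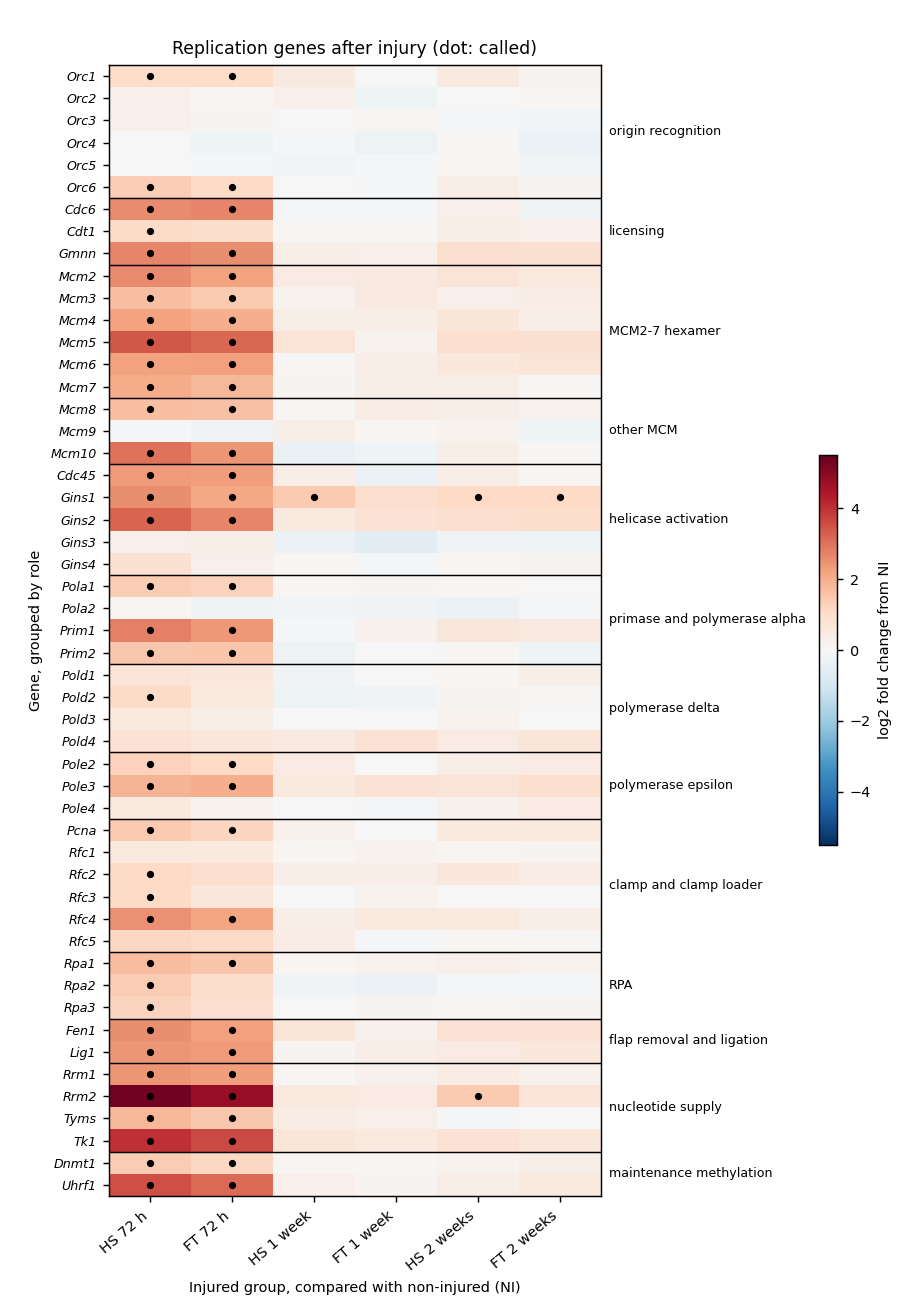
Log2 fold change against NI of the 51 genes (rows, ordered by role) at 72 h, 1 week and 2 weeks after HS and after FT (columns), with a dot where a gene was called. The columns at 72 h hold 37 and 31 dots, and the columns at 1 and 2 weeks hold 0 to 2 dots each.

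The MCM2-7 genes, which encode the 6 subunits of the replicative helicase, were all called higher at 72 h after both injuries, with median log2 fold changes of 2.20 and 2.12. *Mcm5* (GRCm38 chromosome 8, 75109569 to 75128439, plus strand), whose promoter stretch is printed above, gave 9.30, 11.6 and 9.50 CPM in the NI samples, 166, 95.8 and 92.3 CPM in the HS 72 h samples and 105, 83.8 and 95.4 CPM in the FT 72 h samples. All 6 injured samples lay at least at 83.8 CPM while NI did not pass 11.6 CPM. The log2 fold change was 3.43 ± 0.27 after HS and 3.16 ± 0.27 after FT (SE, limma adjusted p = 6.36e-09 and 2.14e-08), the largest of the hexamer.

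*Mcm2* measured 6.32, 6.95 and 7.10 CPM in the NI samples, 55.3, 44.4 and 34.4 CPM in the HS 72 h samples and 38.6, 30.1 and 32.0 CPM in the FT 72 h samples. For *Mcm4* the values were 18.5, 11.1 and 10.6 CPM in the NI samples, 85.6, 59.7 and 44.5 CPM in the HS 72 h samples and 66.4, 49.1 and 48.2 CPM in the FT 72 h samples. *Mcm7*, whose exons overlap other genes over 12.58% of their bases, stood at 22.4, 21.7 and 16.3 CPM in the NI samples, 121, 70.7 and 66.6 CPM in the HS 72 h samples and 87.5, 62.5 and 66.6 CPM in the FT 72 h samples. In these 3 genes no 72 h sample overlapped NI, and the log2 fold changes lay between 1.81 (*Mcm7* after FT) and 2.61 (*Mcm2* after HS). *Mcm3*, the most abundant hexamer subunit in NI, read 60.9, 53.9 and 42.5 CPM in the NI samples, 219, 155 and 134 CPM in the HS 72 h samples and 153, 125 and 154 CPM in the FT 72 h samples. Its groups were also apart, with the smallest change of the 6 at 1.67 ± 0.23 after HS and 1.46 ± 0.23 after FT (adjusted p = 1.96e-05 and 9.9e-05). *Mcm6* was uneven, at 13.05, 11.3 and 9.40 CPM in the NI samples, 103, 25.4 and 58.2 CPM in the HS 72 h samples and 93.6, 28.0 and 65.8 CPM in the FT 72 h samples. In both injuries replicate 2 was the lowest by far, although still above every NI sample, and the change was 2.21 ± 0.44 after HS and 2.27 ± 0.44 after FT (adjusted p = 0.000767 and 0.000676) with the widest SE of the hexamer.

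**Figure D2:**
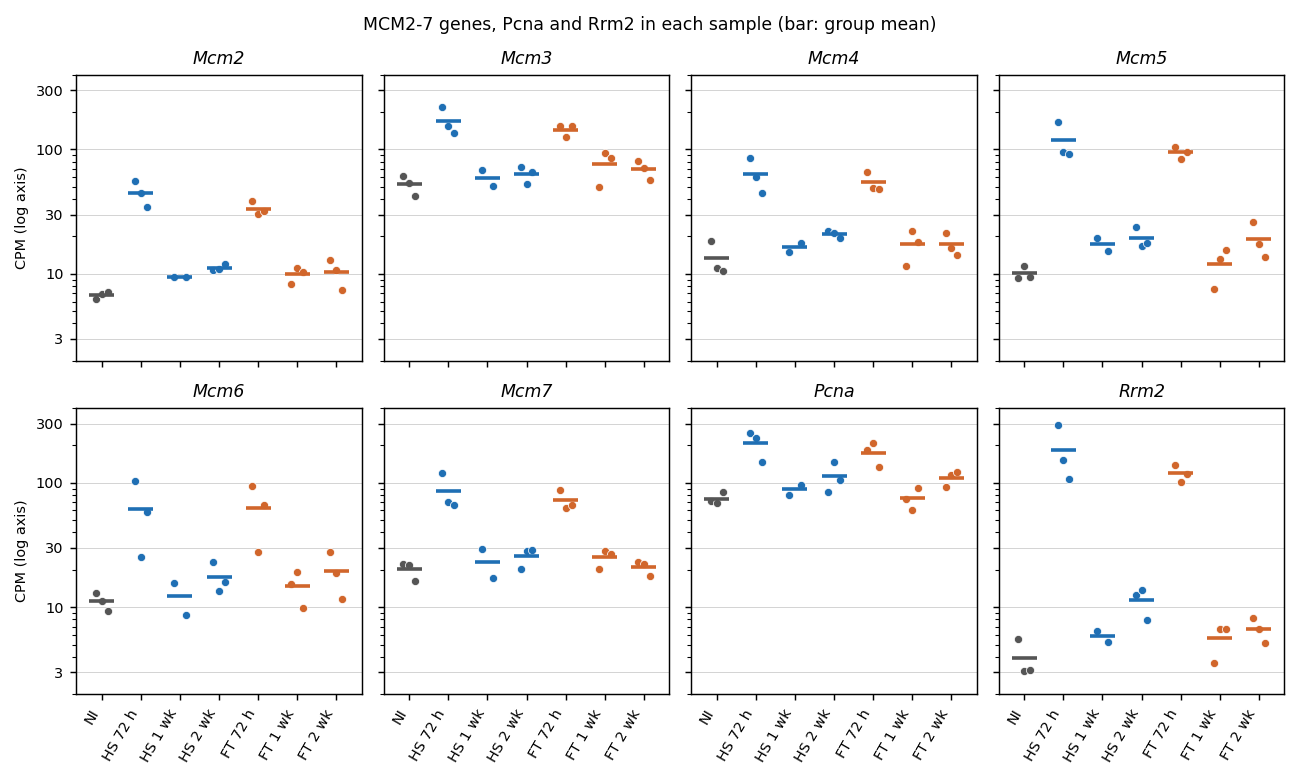
CPM (log axis) of *Mcm2* to *Mcm7*, *Pcna* and *Rrm2* in each of the 20 samples by group, with points for samples and bars for group means. In all 8 panels the 72 h samples of both injuries lie above the 3 NI samples, and the group means at 1 and 2 weeks lie below the 72 h means.

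Of the MCM genes outside the hexamer, *Mcm10*, which binds the helicase at origin firing, gave 1.85, 1.16 and 3.07 CPM in the NI samples, 26.1, 17.5 and 14.4 CPM in the HS 72 h samples and 11.0, 13.7 and 12.8 CPM in the FT 72 h samples. No 72 h sample came near NI, and the log2 fold change was 3.000 ± 0.29 after HS and 2.43 ± 0.29 after FT (adjusted p = 1.28e-07 and 2.4e-06). *Mcm8*, a helicase subunit of recombination repair, measured 2.32, 2.70 and 2.21 CPM in the NI samples, 10.5, 8.20 and 7.38 CPM in the HS 72 h samples and 9.24, 8.47 and 7.30 CPM in the FT 72 h samples, again without overlap and with changes of 1.65 and 1.60. Its partner *Mcm9* read 2.20, 4.25 and 3.45 CPM in the NI samples, 4.10, 2.64 and 2.67 CPM in the HS 72 h samples and 1.87, 2.92 and 3.74 CPM in the FT 72 h samples. These groups overlapped in both comparisons, with log2 fold changes of -0.05 and -0.19 (adjusted p = 0.911 and 0.673), and 19.18% of the *Mcm9* exons overlap *Asf1a*, whose reads cannot be told apart without strand.

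Origin recognition had the smallest median change of the roles. Of its 6 genes, *Orc1* and *Orc6* were called higher after both injuries and *Orc2* to *Orc5* after neither, with a median log2 fold change of 0.28 after HS and 0.11 after FT. *Orc6*, the subunit least tightly held in the complex, gave 16.9, 10.8 and 11.6 CPM in the NI samples, 38.8, 39.8 and 24.8 CPM in the HS 72 h samples and 28.5, 31.3 and 25.6 CPM in the FT 72 h samples. Its 72 h samples cleared NI, with a change of 1.36 ± 0.24 after HS and 1.11 ± 0.24 after FT (adjusted p = 0.000196 and 0.00143). *Orc1*, the ATPase subunit whose level is known to vary over the cell cycle, was scarce at 1.55, 1.80 and 2.30 CPM in the NI samples, 6.01, 3.20 and 4.10 CPM in the HS 72 h samples and 5.62, 4.09 and 3.29 CPM in the FT 72 h samples. Its groups did not overlap, but its changes of 1.02 and 1.004 lay at the 2-fold limit. *Orc4* showed 48.9, 39.5 and 40.4 CPM in the NI samples, 38.8, 51.7 and 38.3 CPM in the HS 72 h samples and 30.6, 39.4 and 38.8 CPM in the FT 72 h samples. Its HS samples overlapped NI and its FT samples lay just below it, with changes of -0.01 and -0.24 (adjusted p = 0.986 and 0.531). The fitted changes of *Orc2*, *Orc3* and *Orc5* lay between -0.07 (*Orc5* after FT) and 0.28 (*Orc3* after HS). Other genes overlap 29.82% of the *Orc2* exons and 10.81% of those of *Orc1*.

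All 3 licensing genes were called higher after HS and 2 of 3 after FT. *Cdc6*, the loader whose promoter stretch is printed above, measured 2.32, 1.67 and 3.07 CPM in the NI samples, 26.5, 14.2 and 11.7 CPM in the HS 72 h samples and 22.0, 15.5 and 15.2 CPM in the FT 72 h samples. Every 72 h sample was at least 11.7 CPM against at most 3.07 CPM in NI, and the log2 fold change was 2.60 ± 0.31 after HS and 2.67 ± 0.31 after FT (adjusted p = 2.39e-06 and 1.74e-06). *Gmnn*, encoding geminin, the inhibitor of CDT1, gave 4.95, 3.86 and 4.51 CPM in the NI samples, 41.1, 31.0 and 23.6 CPM in the HS 72 h samples and 29.3, 36.2 and 21.4 CPM in the FT 72 h samples, a change of 2.68 and 2.55. *Cdt1* itself stood at 3.81, 4.63 and 4.22 CPM in the NI samples, 11.2, 7.54 and 9.02 CPM in the HS 72 h samples and 12.9, 6.72 and 7.30 CPM in the FT 72 h samples. All 72 h samples of *Cdt1* were above NI, but the change of 1.03 ± 0.30 after HS and 0.95 ± 0.30 after FT (adjusted p = 0.0149 and 0.0265) reached 2-fold after HS alone. The CPM of *Cdt1* divided by that of *Gmnn* went from 0.771 to 1.2 in the NI samples to 0.243 to 0.383 at 72 h after HS and 0.185 to 0.438 at 72 h after FT.

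Helicase activation split by subunit. *Cdc45*, *Gins1* and *Gins2* were called higher after both injuries, whereas *Gins3* and *Gins4* were not called after either. *Cdc45*, the helicase cofactor, gave 2.74, 2.70 and 2.01 CPM in the NI samples, 21.8, 12.7 and 10.7 CPM in the HS 72 h samples and 18.6, 13.1 and 11.4 CPM in the FT 72 h samples. *Gins1* measured 2.50, 3.60 and 3.74 CPM in the NI samples, 24.0, 22.7 and 18.7 CPM in the HS 72 h samples and 15.6, 18.1 and 13.9 CPM in the FT 72 h samples. *Gins2* read 4.05, 2.83 and 3.55 CPM in the NI samples, 50.1, 46.8 and 20.1 CPM in the HS 72 h samples and 30.0, 22.5 and 23.5 CPM in the FT 72 h samples. None of these 3 genes overlapped with NI, and *Gins2* had the largest change of the role at 3.22 ± 0.29 after HS and 2.70 ± 0.29 after FT (adjusted p = 5.27e-08 and 6.58e-07). Reads of *Gins2* are less certain, since 67.32% of its exons overlap *Gse1*. *Gins3* stood at 4.53, 4.25 and 3.07 CPM in the NI samples, 4.86, 5.65 and 4.10 CPM in the HS 72 h samples and 6.74, 4.38 and 4.27 CPM in the FT 72 h samples, where the groups overlapped, with a change of 0.28 ± 0.26 after HS and 0.33 ± 0.26 after FT (adjusted p = 0.447 and 0.381). *Gins4* gave 14.1, 10.4 and 9.21 CPM in the NI samples, 27.5, 17.8 and 17.2 CPM in the HS 72 h samples and 23.7, 6.43 and 15.9 CPM in the FT 72 h samples, with FT 72 h replicate 2 below every NI sample. The *Gins2* to *Gins3* ratio of CPM was 0.667 to 1.16 in NI, 4.90 to 10.3 at 72 h after HS and 4.44 to 5.5 at 72 h after FT.

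Of primase and polymerase alpha, which act as 1 complex, 3 of 4 genes were called higher after both injuries. *Prim1*, the catalytic subunit of primase, gave 4.35, 2.57 and 4.22 CPM in the NI samples, 33.1, 29.5 and 21.5 CPM in the HS 72 h samples and 25.7, 24.0 and 15.4 CPM in the FT 72 h samples. No 72 h sample fell below 15.4 CPM and no NI sample passed 4.35 CPM, a log2 fold change of 2.77 ± 0.26 after HS and 2.39 ± 0.26 after FT (adjusted p = 8e-08 and 6.25e-07). *Prim2*, the large primase subunit, measured 9.24, 7.34 and 7.48 CPM in the NI samples, 35.7, 17.7 and 19.3 CPM in the HS 72 h samples and 28.5, 21.6 and 22.7 CPM in the FT 72 h samples. *Pola1*, the catalytic polymerase subunit, read 6.73, 5.66 and 5.95 CPM in the NI samples, 21.6, 16.5 and 13.7 CPM in the HS 72 h samples and 14.4, 20.7 and 11.8 CPM in the FT 72 h samples. Both genes were apart from NI. The changes of these subunits lay between 1.25 (*Pola1* after FT) and 1.54 (*Prim2* after FT). *Pola2*, the regulatory B subunit, showed 19.7, 20.3 and 18.8 CPM in the NI samples, 22.0, 22.0 and 18.9 CPM in the HS 72 h samples and 18.2, 15.8 and 17.9 CPM in the FT 72 h samples. The HS and NI samples of *Pola2* overlapped, the FT samples all lay below NI, and the changes of 0.09 ± 0.21 after HS and -0.18 ± 0.21 after FT did not pass the test (adjusted p = 0.767 and 0.56).

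Polymerase delta had the fewest calls, 1 of 4 genes after HS and 0 of 4 after FT. *Pold2*, its B subunit, gave 12.99, 9.14 and 9.69 CPM in the NI samples, 23.0, 25.7 and 18.0 CPM in the HS 72 h samples and 16.6, 13.4 and 16.2 CPM in the FT 72 h samples. Both injured groups cleared NI, but the change of 1.04 ± 0.27 after HS and 0.53 ± 0.27 after FT (adjusted p = 0.00745 and 0.167) was called after HS alone and was lost there without NI replicate 2, NI replicate 3 or HS 72 h replicate 2. *Pold3*, an accessory subunit, read 34.7, 35.4 and 34.6 CPM in the NI samples, 54.4, 50.7 and 46.7 CPM in the HS 72 h samples and 44.7, 41.2 and 46.1 CPM in the FT 72 h samples. These groups were separate too, at the small change of 0.53 ± 0.19 after HS and 0.33 ± 0.19 after FT (adjusted p = 0.0419 and 0.215). The catalytic subunit *Pold1* and the small subunit *Pold4* had changes from 0.57 (*Pold1* after FT) to 0.78 (*Pold4* after HS) and were not called, and 24.57% of the *Pold4* exons are shared with another annotated gene on the same strand.

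Of polymerase epsilon, *Pole3*, a histone-fold subunit, measured 5.18, 3.73 and 3.74 CPM in the NI samples, 21.4, 17.0 and 12.7 CPM in the HS 72 h samples and 18.8, 22.2 and 14.0 CPM in the FT 72 h samples. Injured samples held at least 12.7 CPM against at most 5.18 CPM in NI, and the log2 fold change was 1.88 ± 0.25 after HS and 1.99 ± 0.25 after FT (adjusted p = 9.66e-06 and 5.21e-06). *Pole2*, the B subunit, gave 3.28, 3.09 and 3.26 CPM in the NI samples, 9.41, 6.78 and 9.64 CPM in the HS 72 h samples and 7.86, 7.89 and 6.77 CPM in the FT 72 h samples, was called after both injuries and changed by 1.28 and 1.11. *Pole4*, the histone-fold partner of *Pole3*, stood at 19.2, 14.3 and 13.7 CPM in the NI samples, 23.8, 20.9 and 23.2 CPM in the HS 72 h samples and 20.3, 14.9 and 19.1 CPM in the FT 72 h samples. Its HS samples lay above NI and its FT samples overlapped it, with changes of 0.52 ± 0.19 after HS and 0.20 ± 0.19 after FT (adjusted p = 0.05 and 0.479). The catalytic *Pole*, outside the 51 genes, had log2 fold changes of 1.69 and 1.35 and was called in both comparisons.

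*Pcna* (chromosome 2, 132249162 to 132253314, minus strand), the sliding clamp, gave 71.2, 69.2 and 84.0 CPM in the NI samples, 250.1, 229 and 147 CPM in the HS 72 h samples and 183, 208 and 133 CPM in the FT 72 h samples. The lowest injured sample, 133 CPM, was above the highest NI sample, 84.0 CPM. Its log2 fold change was 1.44 ± 0.23 after HS and 1.199 ± 0.23 after FT (adjusted p = 9.08e-05 and 0.000662), and reads can be shared with the pseudogenes *Pcna-ps1* and *Pcna-ps2*. The clamp loader genes differed from one another. *Rfc4* measured 5.48, 5.15 and 6.14 CPM in the NI samples, 40.6, 39.8 and 24.0 CPM in the HS 72 h samples and 31.6, 26.9 and 22.3 CPM in the FT 72 h samples, without overlap, and changed by 2.50 ± 0.26 after HS and 2.16 ± 0.26 after FT (adjusted p = 3.16e-07 and 2.51e-06). *Rfc1*, the large subunit, read 58.9, 56.2 and 55.7 CPM in the NI samples, 99.6, 73.8 and 78.3 CPM in the HS 72 h samples and 81.4, 85.3 and 78.4 CPM in the FT 72 h samples. *Rfc1* also stood apart from NI in every 72 h sample, but its change of 0.54 ± 0.14 after HS and 0.52 ± 0.14 after FT (adjusted p = 0.00799 and 0.0123) was under 2-fold. *Rfc2* and *Rfc3* were called after HS only, at 1.09 and 1.11, with 0.91 and 0.63 after FT. Exons overlap other genes over 15.1% of their bases in *Rfc2*, 12.65% in *Rfc4* and 10.69% in *Rfc5*. *Rfc5* gave 5.36, 7.46 and 4.41 CPM in the NI samples, 28.0, 6.22 and 11.9 CPM in the HS 72 h samples and 21.1, 5.84 and 14.3 CPM in the FT 72 h samples. Replicate 2 of each injury sat within the NI range of *Rfc5*, and its changes of 1.12 ± 0.48 after HS and 1.05 ± 0.48 after FT did not pass (adjusted p = 0.0854 and 0.116).

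RPA coats single-stranded DNA at the fork. *Rpa1*, its large subunit, measured 48.1, 39.5 and 33.1 CPM in the NI samples, 182, 119 and 103 CPM in the HS 72 h samples and 136, 103 and 110.2 CPM in the FT 72 h samples, with no overlap and a change of 1.71 ± 0.27 after HS and 1.53 ± 0.27 after FT (adjusted p = 7.77e-05 and 0.000271). *Rpa2* stood at 19.4, 13.9 and 14.4 CPM in the NI samples, 54.2, 39.3 and 35.1 CPM in the HS 72 h samples and 35.3, 28.3 and 29.1 CPM in the FT 72 h samples. *Rpa3*, the smallest subunit, read 11.0, 7.85 and 9.40 CPM in the NI samples, 27.0, 24.5 and 17.8 CPM in the HS 72 h samples and 13.7, 25.1 and 15.5 CPM in the FT 72 h samples. All injured samples of *Rpa2* and *Rpa3* were above NI, and the changes of 1.39 and 1.24 after HS were called while 0.95 and 0.87 after FT were under 2-fold.

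Nucleotide supply held the largest changes of the 51 genes. *Rrm2* (chromosome 12, 24708241 to 24714146, plus strand), the small subunit of ribonucleotide reductase, which makes deoxynucleotides and is limited to S phase in dividing cells, gave 5.54, 3.09 and 3.17 CPM in the NI samples, 289, 152 and 108 CPM in the HS 72 h samples and 139.8, 101 and 117 CPM in the FT 72 h samples. The lowest injured sample was at 101 CPM and the highest NI sample at 5.54 CPM. The log2 fold change was 5.29 ± 0.32 after HS and 4.79 ± 0.32 after FT (adjusted p = 1.27e-10 and 5.35e-10). *Tk1*, the cytosolic thymidine kinase, measured 4.53, 5.02 and 6.14 CPM in the NI samples, 140.4, 90.8 and 61.7 CPM in the HS 72 h samples and 92.0, 65.7 and 58.5 CPM in the FT 72 h samples, a change of 4.03 ± 0.27 after HS and 3.65 ± 0.27 after FT (adjusted p = 8.31e-10 and 3.85e-09). *Rrm1*, the large reductase subunit, read 31.6, 24.5 and 21.4 CPM in the NI samples, 236, 125 and 92.5 CPM in the HS 72 h samples and 157, 119 and 109 CPM in the FT 72 h samples, a change of 2.43 and 2.29. *Tyms*, thymidylate synthase, gave 16.2, 20.5 and 25.1 CPM in the NI samples, 94.7, 80.8 and 50.6 CPM in the HS 72 h samples and 59.8, 67.8 and 48.6 CPM in the FT 72 h samples, the smallest change of the role at 1.82 ± 0.26 after HS and 1.498 ± 0.26 after FT (adjusted p = 2.03e-05 and 0.000199). For all 4 genes every 72 h sample was above every NI sample, and the pseudogene *Tyms-ps* can share reads with *Tyms*. *Rrm2* CPM divided by *Rrm1* CPM went from 0.126 to 0.175 in NI to 1.17 to 1.23 at 72 h after HS and 0.850 to 1.07 at 72 h after FT.

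Among the genes that finish the new strand, *Fen1*, the flap endonuclease, gave 20.1, 13.1 and 12.4 CPM in the NI samples, 115, 77.5 and 77.9 CPM in the HS 72 h samples and 92.9, 60.8 and 66.0 CPM in the FT 72 h samples. *Lig1*, the ligase that seals Okazaki fragments, measured 13.5, 10.3 and 14.7 CPM in the NI samples, 103, 58.0 and 58.0 CPM in the HS 72 h samples and 78.0, 62.5 and 58.5 CPM in the FT 72 h samples. No injured sample of either overlapped NI, with changes of 2.54 ± 0.28 after HS and 2.24 ± 0.28 after FT for *Fen1* (adjusted p = 9.08e-07 and 5.14e-06) and 2.42 ± 0.22 after HS and 2.33 ± 0.22 after FT for *Lig1* (adjusted p = 6.44e-08 and 1.24e-07). The value of *Fen1* is uncertain, since 84.19% of its exons overlap other genes on the opposite strand. *Uhrf1* (chromosome 17, 56303321 to 56323486, plus strand), which reads hemimethylated DNA behind the fork, stood at 6.49, 6.82 and 6.81 CPM in the NI samples, 117, 67.2 and 73.0 CPM in the HS 72 h samples and 75.4, 53.5 and 61.6 CPM in the FT 72 h samples. *Dnmt1*, the maintenance methyltransferase it recruits, read 26.8, 27.0 and 25.3 CPM in the NI samples, 98.1, 66.4 and 53.5 CPM in the HS 72 h samples and 77.3, 54.0 and 47.4 CPM in the FT 72 h samples. Both were apart from NI in every 72 h sample, *Uhrf1* by 3.54 ± 0.24 after HS and 3.14 ± 0.24 after FT (adjusted p = 1.03e-09 and 6.36e-09) and *Dnmt1* by 1.40 ± 0.22 after HS and 1.13 ± 0.22 after FT (adjusted p = 6.9e-05 and 0.00068).

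**Figure D3:**
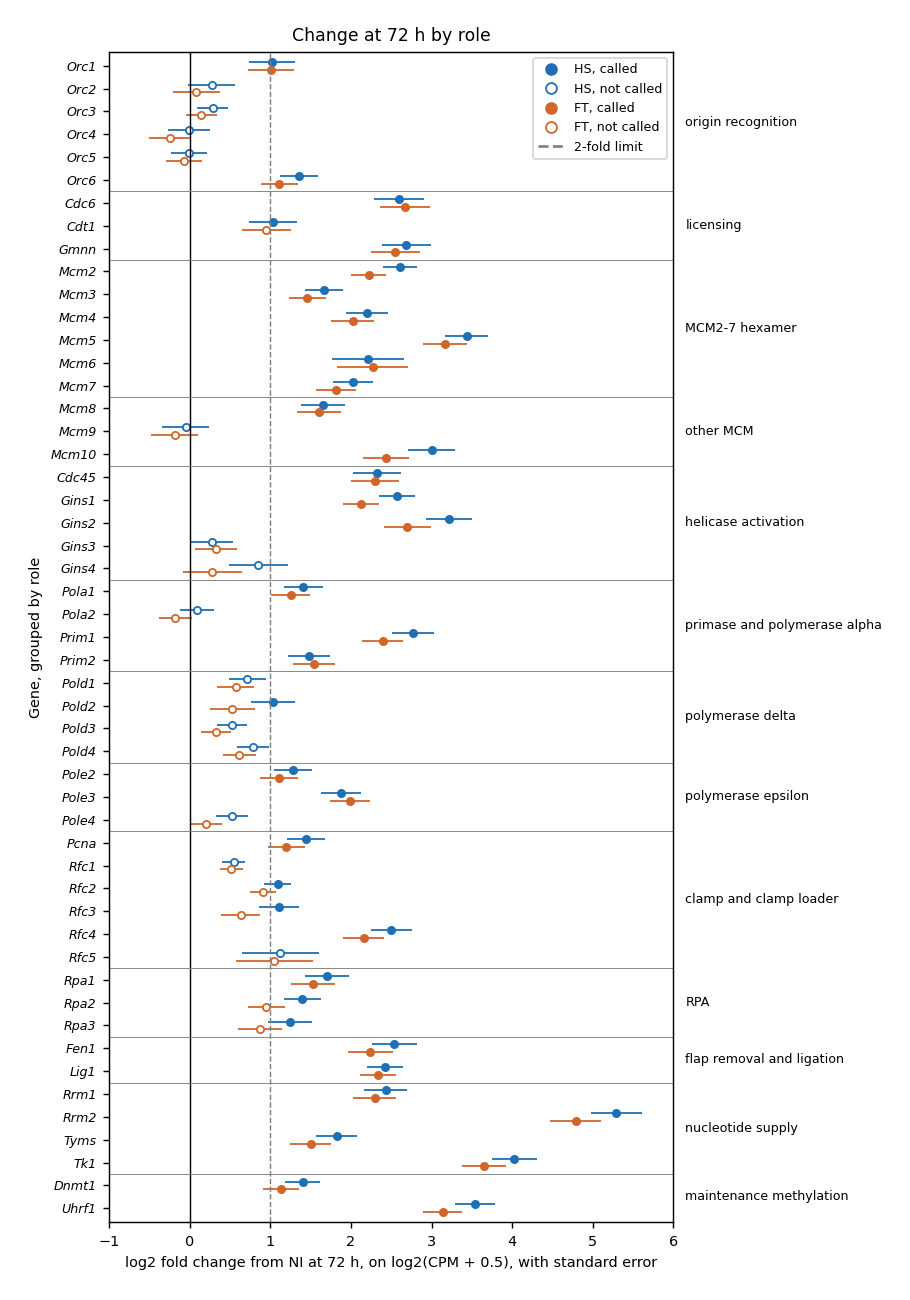
Log2 fold change against NI at 72 h (horizontal axis, ± SE of the limma fit) for the 51 genes grouped by role, after HS and after FT, with filled symbols for called genes, open symbols for others and a dashed line at the 2-fold limit. *Rrm2*, *Tk1*, *Uhrf1* and *Mcm5* lie farthest to the right, and *Orc4*, *Orc5*, *Mcm9* and *Pola2* lie about 0.

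Calls close to the 2-fold limit depended on single samples. After HS, *Cdt1* and *Orc1* were lost without NI replicate 1 or HS 72 h replicate 1, and *Rfc3* without HS 72 h replicate 1 or 2. After FT, *Orc1* was lost without NI replicate 1, NI replicate 2 or FT 72 h replicate 1, *Dnmt1* without FT 72 h replicate 1, and *Orc6* without NI replicate 2. Other genes passed the limit after FT only when a sample was left out, *Cdt1* without FT 72 h replicate 2 or 3, *Rfc2* without FT 72 h replicate 3, *Rpa2* without NI replicate 1 or FT 72 h replicate 2, and *Rpa3* without FT 72 h replicate 1. *Rfc5* was called without replicate 2 of the injured group, at 1.62 after HS and 1.55 after FT.

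Because the deposited CPM rest on effective library sizes, columns summed to different totals, at most 830481 CPM in NI and at least 1066750 CPM at 72 h. With every column scaled to 1 total, 24 of the 51 genes were called higher after HS, where 3.68% of all genes were, and 24 after FT, where 3.69% were, with median changes of 0.94 and 0.81 beside -0.52 and -0.48 over all genes. The 13 genes lost after HS under that scaling were *Cdt1*, *Dnmt1*, *Orc1*, *Orc6*, *Pcna*, *Pola1*, *Pold2*, *Pole2*, *Prim2*, *Rfc2*, *Rfc3*, *Rpa2* and *Rpa3*. The 7 lost after FT were *Dnmt1*, *Mcm3*, *Orc1*, *Orc6*, *Pcna*, *Pola1* and *Pole2*. None of the 51 became lower, where 19% of all genes were lower after HS and 16.3% after FT under that scaling.

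Levels per kilobase of 1 principal transcript of each gene showed how the subunits of a complex stood to one another. In NI the MCM2-7 subunits ranged from 2.01 CPM per kb (*Mcm2*) to 17.3 CPM per kb (*Mcm3*), a ratio of 8.59. At 72 h the same ratio of levels was 4.21 after HS and 4.78 after FT, with the same genes at the ends. The origin recognition subunits were spread over a ratio of 43.0 in NI, from *Orc1* at 0.625 to *Orc3* at 26.9 CPM per kb, and over 22.2 and 20.7 at 72 h. In GINS the order of levels changed, since *Gins2* was the lowest in NI at 0.892 CPM per kb and *Gins3* the lowest at 72 h, at 1.93 and 2.04 CPM per kb after HS and FT. Of primase and polymerase alpha, *Pola2* was the highest in NI (8.10 CPM per kb) and *Prim1* the highest at 72 h (17.7 and 13.7 CPM per kb). In the clamp loader the highest was *Rfc1* in NI (11.99 CPM per kb) and *Rfc4* at 72 h (28.3 and 21.9 CPM per kb). These ratios depend on the length used. Per kilobase of all annotated exonic bases, a choice made after seeing the data, the MCM2-7 ratio was 14.3 in NI, with 7.02 and 7.97 at 72 h, and that of origin recognition 18.8, 10.9 and 9.25, with *Orc6* in place of *Orc3* as the highest at 72 h. The genes named at the ends for MCM2-7, GINS, primase with polymerase alpha and the clamp loader were the same by either length. The highest GINS gene at 72 h, not named above, was *Gins1* by transcript length and *Gins4* by all exonic bases.

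**Figure D4:**
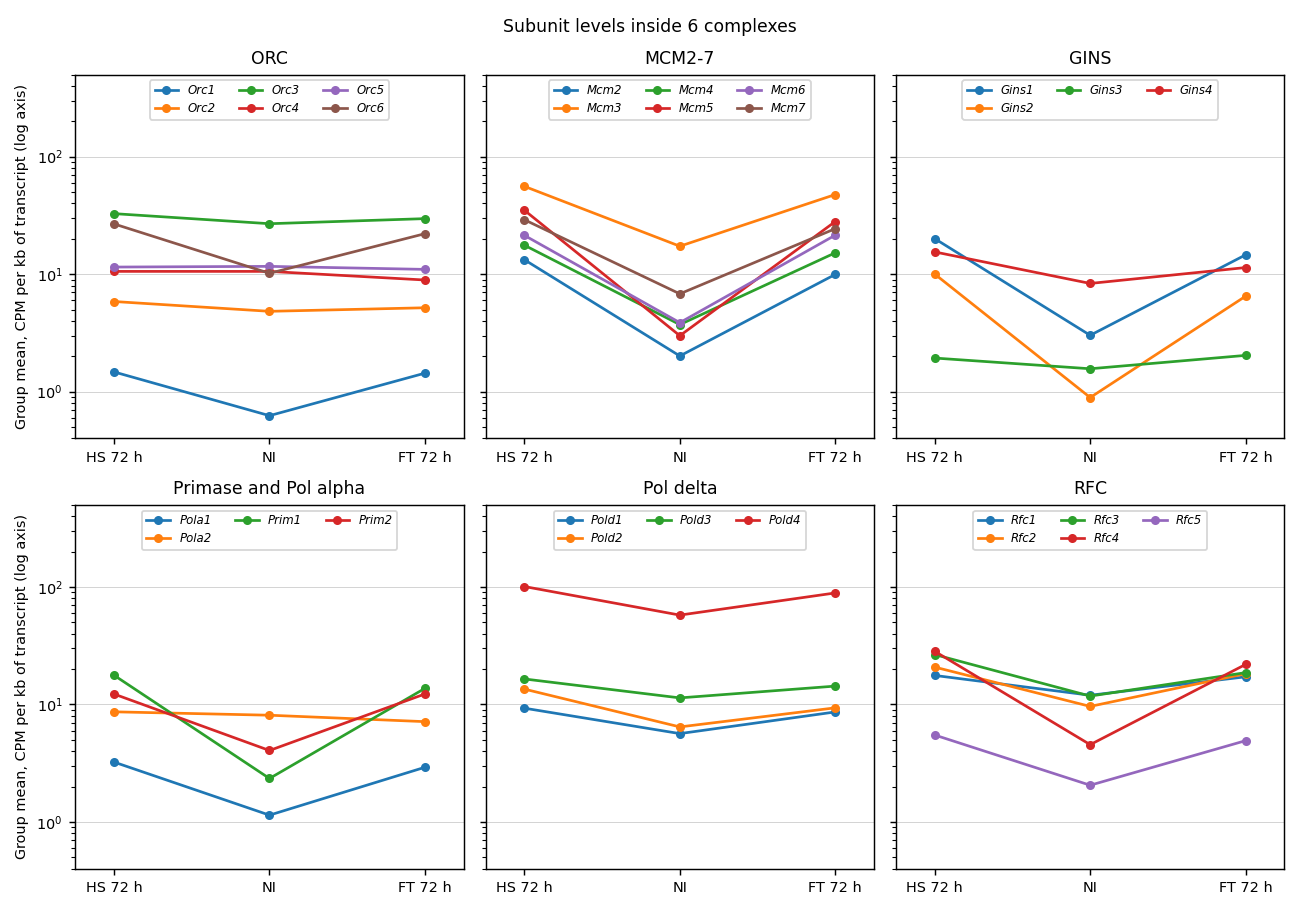
Group mean CPM per kilobase of 1 principal transcript (log axis) of each subunit of the origin recognition complex, MCM2-7, GINS, primase with polymerase alpha, polymerase delta and RFC, with NI in the middle, HS 72 h to the left and FT 72 h to the right. Lines of *Gins2*, *Prim1* and *Rfc4* cross others between NI and 72 h, while the origin recognition lines run nearly flat apart from *Orc1* and *Orc6*.

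The 14 genes called after neither injury had a median level of 8.62 CPM per kb in NI, and the 31 called after both had 3.63 CPM per kb. At 72 h after HS these medians were 11.0 and 21.4 CPM per kb, and after FT 9.58 and 17.7 CPM per kb. Per kilobase of all exonic bases they were 5.11 and 2.17 in NI, 6.18 and 13.7 in HS, and 5.503 and 11.5 in FT at 72 h. The classes come from the same contrast, so this is a description of them. The promoter letters described above were held by 12 of the 26 genes with a window called after both injuries (46.15%) and by 5 of the 13 called after neither (38.46%), the latter being *Gins3*, *Orc3*, *Pold1*, *Pold3* and *Pole4*. Median log2 fold changes after HS were 1.40 for the 19 genes with the letters and 1.44 for the 25 without them, and after FT 1.13 and 1.199.

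HS and FT were compared directly to ask whether these genes differed with the extent of the lesion. At 72 h none of the 51 was called, and none of all genes was either (0%). At an unadjusted p under 0.05 there were also 0 of the 51, against 3% of all genes, and edgeR's quasi-likelihood test likewise called 0 at each time. The HS mean CPM was above the FT mean for 46 of the 51 genes, a count not made over all genes. The fitted log2 differences (FT minus HS) ran from -0.57 (*Gins4*) to 0.11 (*Pole3*) with a median of -0.20, beside -0.01 over all genes. HS replicate 1 had the highest sum, 3586 CPM. The other HS sums of 2608 and 2160 CPM lay close to the FT sums of 2608, 2196 and 2122 CPM. *Mcm10* differed by -0.57 ± 0.29 (SE, unadjusted p = 0.0603 in limma) and *Rrm2* by -0.50 ± 0.32 (unadjusted p = 0.126). For the 6 genes called after HS alone the difference ran from -0.51 (*Pold2*) to -0.08 (*Cdt1*), none of them past an unadjusted p of 0.05, so these genes were not shown to differ between the injuries. All FT samples were below all HS samples for 6 of the 51 genes, namely *Gins1*, *Mcm10*, *Pola2*, *Pold2*, *Pold3* and *Pole4*, against 3.44% of all genes. At 1 and 2 weeks 0 of the 51 were called (0% of all genes at each time), and 1 gene at each time had an unadjusted p under 0.05, *Cdc45* at 1 week (4.31% of all genes) and *Rrm2* at 2 weeks (2.61%).

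Few of the genes were called against NI at the later times. Against NI, 1 of the 51 genes was higher 1 week after HS (1.7% of all genes) and 0 were 1 week after FT (2.86%). At 2 weeks 2 were higher after HS (2.43%) and 1 after FT (3.53%). None was lower, where 0.482% and 0.797% of all genes were at 1 and 2 weeks after HS and 1.2% and 1.36% after FT. At 1 week 6 of the 51 had an unadjusted p under 0.05 after HS (12.8% of all genes) and 8 after FT (18.2%), and edgeR's quasi-likelihood test called 1 after FT, *Gins1*. At 2 weeks 16 of the 51 had an unadjusted p under 0.05 after HS (16.1%) and 15 after FT (19.1%). Every 2-week sample lay above every NI sample for 22 of the 51 after HS (14.5%) and for 16 after FT (17.3%), and the fitted change was above 0 for 46 and 40 of the 51. The medians of the 51 log2 fold changes were 0.12 (HS) and 0.16 (FT) at 1 week and 0.34 (HS) and 0.21 (FT) at 2 weeks. With every column scaled to 1 total they were -0.08 (HS) and -0.16 (FT) at 1 week. At 2 weeks they were 0.05 (HS) and -0.16 (FT) under that scaling. Medians over all genes were then -0.17 (HS) and -0.32 (FT) at 1 week, and -0.29 (HS) and -0.36 (FT) at 2 weeks. The summed level was 1003 and 1004 CPM 1 week after HS, 882, 1075 and 1142 CPM 1 week after FT, 1096 to 1131 CPM 2 weeks after HS and 999.7 to 1153 CPM 2 weeks after FT.

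The gene that kept a call was *Gins1* (chromosome 2, 150905400 to 150931280, plus strand), a GINS subunit. It read 9.40 and 9.86 CPM at 1 week and 7.80, 8.98 and 6.28 CPM at 2 weeks after HS, and 6.60, 5.26 and 8.52 CPM at 1 week and 8.52, 7.66 and 6.49 CPM at 2 weeks after FT. All 11 later samples were above the NI maximum of 3.74 CPM. The log2 fold change was 1.44 ± 0.25 1 week after HS (SE, limma adjusted p = 0.00121), 1.12 ± 0.22 at 2 weeks after HS (adjusted p = 0.00291) and 1.10 ± 0.22 at 2 weeks after FT (adjusted p = 0.00212). At 1 week after FT the change was 0.94 (adjusted p = 0.00976), under 2-fold, and passed the limit without NI replicate 2, NI replicate 3 or FT 1 week replicate 2. Without NI replicate 1 the 2-week changes were 0.96 after HS and 0.94 after FT and were no longer called, and with every column scaled to 1 total they were 0.83 and 0.75.

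*Rrm2* was the other gene called later, 2 weeks after HS. Its samples held 6.40 and 5.29 CPM at 1 week and 12.5, 13.7 and 7.97 CPM at 2 weeks after HS, and 3.56, 6.73 and 6.70 CPM at 1 week and 8.14, 6.70 and 5.19 CPM at 2 weeks after FT. The 2-week HS samples were above all NI samples, by a log2 fold change of 1.43 ± 0.32 (adjusted p = 0.00792), while the other later groups overlapped NI. Leaving out NI replicate 2 gave 1.30 with an adjusted p of 0.0557. Set against the rise of the group mean at 72 h, 4.16% of it remained 2 weeks after HS.

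*Pcna* gave 80.6 and 97.0 CPM at 1 week and 84.5, 148 and 105 CPM at 2 weeks after HS, and 74.9, 60.6 and 91.8 CPM at 1 week and 93.1, 115 and 122 CPM at 2 weeks after FT. *Mcm5* gave 19.5 and 15.3 CPM at 1 week and 24.0, 16.9 and 17.8 CPM at 2 weeks after HS, and 7.63, 13.2 and 15.5 CPM at 1 week and 26.02, 17.2 and 13.7 CPM at 2 weeks after FT. The later samples of *Pcna* reached into the 72 h range in 1 HS sample, and those of *Mcm5* stayed below it. Over the 31 genes called at 72 h after both injuries, a median of 4.95% of the 72 h rise remained 1 week after HS, 9.49% at 2 weeks after HS, 6.14% at 1 week after FT and 8.79% at 2 weeks after FT. The remaining share ran from -9.10% (*Prim2*) to 37.78% (*Orc1*) 1 week after HS and from -6.60% (*Prim2*) to 35.25% (*Pcna*) 2 weeks after FT. These shares rest on the deposited CPM and were not computed with every column scaled to 1 total.

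The fall from 72 h was tested within each injury. At 1 week 33 of the 51 genes were lower than at 72 h after HS (4.07% of all genes) and 30 after FT (2.62%). At 2 weeks 30 were lower than at 72 h after HS (3.37%) and 27 after FT (2.68%), and 26 genes were lower in all 4 comparisons. The share of all genes lower in all 4 was not counted, and it cannot exceed 2.62%, the smallest of the single shares. Without FT 1 week replicate 1, which stood apart, the count 1 week after FT was 29. These comparisons share their 72 h samples within an injury. None of the 51 was higher, where 1.95% and 1.37% of all genes were at 1 and 2 weeks after HS and 0.827% and 1.13% after FT. Median log2 changes were -1.35 and -1.29 at 1 and 2 weeks after HS and -1.18 and -1.02 at 1 and 2 weeks after FT. *Rrm2* fell most, by 4.74 on the log2 scale from 72 h to 1 week after HS and by 4.32 after FT. The 26 genes held *Mcm2* and *Mcm4* to *Mcm8*, *Mcm10*, *Cdc45*, *Cdc6*, *Gmnn*, *Gins1*, *Gins2*, *Prim1*, *Prim2*, *Pola1*, *Pole3*, *Rfc4*, *Rpa1*, *Rpa2*, *Fen1*, *Lig1*, *Rrm1*, *Rrm2*, *Tk1*, *Tyms* and *Uhrf1*. *Pcna* fell by 0.89 on the log2 scale at 2 weeks after HS (adjusted p = 0.0171), under 2-fold, and its change 2 weeks after FT was -0.65 (adjusted p = 0.114). Scaled to 1 total per column, 28 of the 51 were lower at 1 week (1.96% of all genes) and 28 at 2 weeks (2.33%) after HS. After FT they numbered 27 (2.1%) and 22 (2.36%) under that scaling. Of the 26 genes, *Gins1*, *Mcm6*, *Pola1*, *Pole3* and *Rpa2* were then each lost from at least 1 comparison.

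For 31 of the 51 genes every one of the 6 samples at 72 h lay above every one of the 11 samples at 1 and 2 weeks, which held for 4.52% of all genes. Later samples of *Tk1* ran from 6.57 to 12.4 CPM and those of *Uhrf1* from 6.57 to 12.4 CPM, against 72 h minima of 58.5 and 53.5 CPM. Those of *Mcm2* ran from 7.41 to 12.9 CPM, of *Mcm4* from 11.6 to 22.3 CPM and of *Mcm7* from 17.1 to 29.3 CPM, all below the lowest 72 h sample of the gene. *Mcm6* and *Rfc5*, with their low 72 h replicates, were among the 20 genes without this separation. From 1 to 2 weeks 0 of the 51 were called in either injury, where 0.00595% of all genes were called higher and 0.00595% lower after HS and 0.0476% and 0.0238% after FT, and 3 of the 51 in each injury had an unadjusted p under 0.05, against 4.69% and 4.6% of all genes. The change from 72 h to 1 week and to 2 weeks did not pass a test of difference between FT and HS for any of the 51 (0% of all genes), and 0 of the 51 had an unadjusted p under 0.05 in either test, against 3.93% and 2.59% of all genes.

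Genes outside the 51 that act with the machinery were taken from lists chosen with earlier results of these data known. Of 35 associated replisome genes 20 were called higher at 72 h after HS and 18 after FT, with medians of 1.23 and 1.13 beside -0.11 and -0.09 over all genes, of which 9.08% and 8.14% were called higher. The largest change was that of *2810417H13Rik*, the PCNA-associated factor, at 5.10 and 4.76. The gene called lower in the list at 72 h was *Chtf8*, a subunit of the alternative clamp loader, at -1.04 after HS (adjusted p = 0.0379), with -0.93 after FT (adjusted p = 0.0678). Of 18 genes of deoxynucleotide supply 9 were called higher after HS and 7 after FT (medians 0.85 and 0.59). *Tk2*, the mitochondrial thymidine kinase, gave -0.78 and -0.87 and was not called. Of 16 E2F and pocket protein genes 7 were called higher after each injury, *E2f1*, *E2f2*, *E2f7*, *E2f8*, *Tfdp1*, *Ccne1* and *Ccne2*, with *E2f1* at 2.36 and 2.31, *E2f8* at 3.12 and 2.50, and *E2f5* lowest at -0.41 and -0.54. The list median was 0.51 after HS and 0.43 after FT.

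Of 14 other DNA polymerase genes, which serve repair, translesion synthesis and mitochondria, 0 were called at 72 h in either direction, where 9.08% and 8.14% of all genes were higher and 4.31% and 4.09% lower after HS and FT, with medians of 0.00 and -0.02. Their changes ran from -0.86 and -0.65 (*Polm*) to 0.98 and 0.59 (*Polh*). All 20 mitosis genes were called higher at 72 h after both injuries, with medians of 3.98 and 3.72. Their summed level was 78.2 to 80.9 CPM in NI, with 1115 to 1818 CPM (HS) and 1119 to 1339 CPM (FT) at 72 h. In the later samples it was 98.0 to 149 CPM. *Mki67* changed by 3.93 and 4.20, *Top2a* by 4.66 and 4.59, and *Cdk1* by 4.24 and 3.78. The extremes of the list were *Ccnb1* at 4.95 and 4.75 and *Cenpf* at 2.27 and 2.67.

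**Figure D5:**
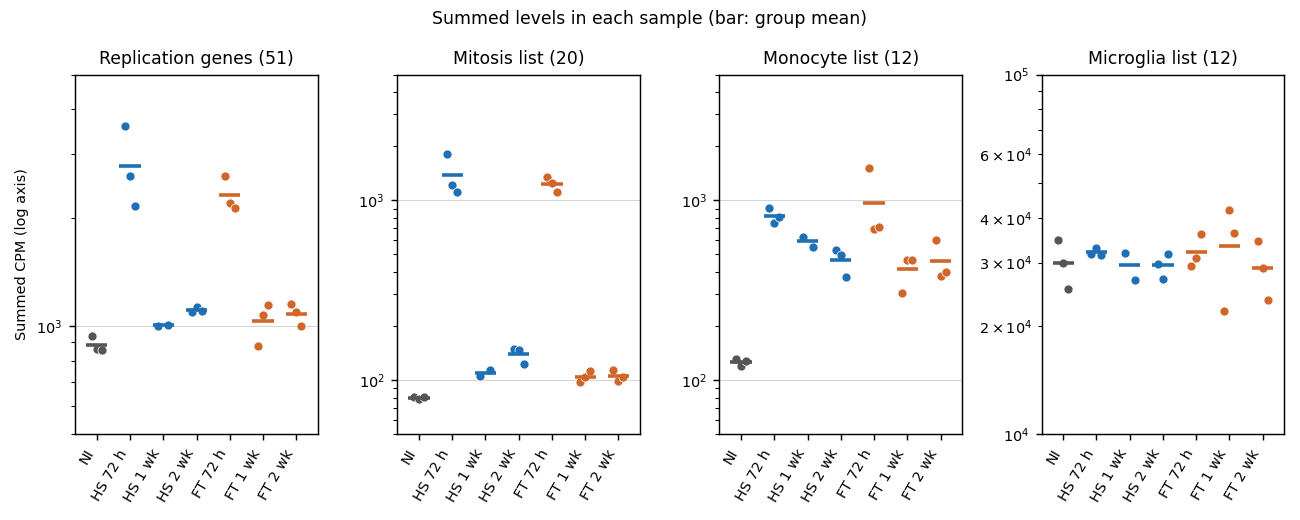
Summed CPM per sample of the 51 replication genes, 20 mitosis genes, 12 monocyte genes and 12 microglial genes by group, with points for samples and bars for group means. The replication and mitosis sums are high at 72 h and lower later, with every later mitosis sum above the NI sums. The monocyte sum is above NI at all 3 times, and the microglial sum overlaps between groups.

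Markers of other cells that the gate could hold were read beside these results, again against 9.08% and 8.14% of all genes higher and 4.31% and 4.09% lower at 72 h after HS and FT. Of 12 monocyte genes 5 were called higher at 72 h after HS and 7 after FT. Their summed level was 120.3 to 132 CPM in NI. It was 749 to 901 CPM in the HS samples at 72 h and 688 to 1502 CPM in the FT samples at that time, and most of the sum at 72 h was *Fn1*, which gave the largest change of the list (5.33 and 5.39), while *Ly6c1* gave the smallest (-0.47 and -0.22). *Ly6c2*, another gene of the list, had group means of 1.08 CPM in NI, and of 1.67 CPM (HS) and 4.64 CPM (FT) at 72 h. It is 1 scarce gene and does not stand for the 12, of which 5 and 7 were called higher. The monocyte sum was 553 to 628 CPM 1 week after HS and 306 to 468 CPM 1 week after FT, all above NI. The 12 microglial genes summed to 25363 to 34766 CPM in the NI samples, 31539 to 32889 CPM in the HS and 29412 to 36035 CPM in the FT samples of 72 h, with *Fcrls* higher (1.51 and 1.61) and *Tmem119* lower (-1.22 and -1.13). Of 9 neutrophil genes 0 were called higher and 1 lower after each injury, at sums of 48.7 to 116 CPM in the NI samples, 23.6 to 27.5 CPM in the HS and 21.3 to 61.9 CPM in the FT samples of 72 h. Lymphocyte genes summed to between 36.1 and 61.0 CPM in all samples, and 1 of 11, *Nkg7*, was called higher after FT. Of 8 oligodendrocyte precursor genes *Cspg4* was higher after both injuries (1.56 and 2.22), *Olig1* and *Bcan* were lower after both (-1.66 and -1.56, and -2.26 and -1.94), and *Olig2* was lower after HS. The list summed to 30.7 to 42.2 CPM in the NI samples, 20.2 to 24.5 CPM in the HS and 29.4 to 37.3 CPM in the FT samples of 72 h, and at 2 weeks to 42.8 to 97.6 CPM (HS) and 53.1 to 88.5 CPM (FT), above every NI sample. No gene of the mature oligodendrocyte, endothelial or erythroid lists was called at 72 h in either direction, and 2 of 8 neuronal genes were lower after each injury. Of 8 astrocyte genes 1 was higher and 3 lower after HS and 2 higher and 2 lower after FT, with *Gfap* at 2.20 and 2.86. Mature oligodendrocyte genes summed to 1275 to 2580 CPM in NI, 715 to 2236 CPM (HS) and 1192 to 1612 CPM (FT) at 72 h. Astrocyte genes summed to 390 to 667, 292 to 568 and 469 to 686 CPM in those groups. The part of other cell types in the rise at 72 h was not tested.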

How the data were processed

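The deposited table held 16810 genes in 20 samples. Per the study's methods, the authors mapped polyadenylated RNA-seq reads (SMARTer and Nextera libraries, strand not stated) to mm10 with TopHat2 2.0.9, counted them with HTSeq 0.5.4p3, dropped genes that did not reach 10 reads in 2 replicates, and normalized with edgeR 3.3.6. The deposited values are a signal, CPM on an effective library size (normalization factor times library size). Whole reads were recovered from 100% of 336200 values (tolerance 0.001 of 1 read's worth), giving 3.87 M to 34.1 M reads per sample.

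Limma 3.58.1 (R 4.3.3) with an intensity trend was run on log2(CPM + 0.5) with 1 mean per group over all 20 samples, and p-values were adjusted over all 16810 genes. The procedure was tested on simulated data. A call needed an adjusted p under 0.05 and a 2-fold change. Alternatives used other pseudocounts, filters, scalings and sample sets, a replicate block, and, on recovered reads, DESeq2 1.42.0 and edgeR 4.0.16. The 51 genes, the gene lists and the genes given in detail (MCM2-7, *Pcna*, *Rrm2*, the largest and smallest change of each role, and genes called in any comparison other than 72 h against NI) were chosen with earlier results of these data known. Lengths (of 1 principal transcript per gene), positions and overlaps came from a GRCm38 annotation, and promoter windows from RefSeq.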

Additional observations from a re-analysis of the deposited data

How the results depend on the processing

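With every column scaled to 1 total, calls against NI numbered 24 at 72 h after HS, 1 at 2 weeks after HS and 0 at 2 weeks after FT, and the deposited NI columns had lower totals than the 72 h columns. At 1 week after FT, 1 gene was called with 0.1 CPM added, quantile normalization, edgeR's quasi-likelihood or likelihood ratio test or DESeq2, and 2 with no fold limit. At 2 weeks after FT, 2 genes were called under those 5 settings and 4 with no fold limit. Leaving out each replicate in turn gave 34 to 37 calls at 72 h after HS, 1 to 1 at 1 week and 1 to 2 at 2 weeks, and 29 to 34, 0 to 1 and 1 to 2 after FT. For the fall from 72 h it gave 27 to 33 (1 week) and 26 to 32 (2 weeks) after HS and 28 to 32 and 22 to 27 after FT, and 0 to 0 for all other comparisons. These counts do not show which genes were called. Without NI replicate 1 the count against NI 2 weeks after FT did not include *Gins1*, so another gene was called there. No gene reversed. Replicate numbers were treated as names of samples only. Over 57 pairs of same-numbered samples from different groups, deviations from group means correlated at a median of 0.001 (-0.399 to 0.392). A median over all groups does not decide whether particular groups were linked. The fit with a replicate block called 38 genes at 72 h after HS, adding *Rfc5* (1.12, limma adjusted p = 0.0339), and changed no other call. Depth limited the scarcest genes, the lowest of which had 9 reads in 1 sample.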
